A study of Homo sapiens with 8 samples.

Results

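The genes described here are targets of the hypoxia-inducible factors (HIF) and the enzymes of glycolysis, a list of 35 genes of which 17 encode glycolytic enzymes and 18 are other HIF targets. They were measured in T47D, a human luminal breast cancer cell line that expresses the estrogen receptor. Members were taken as the probe sets that carry the symbol of a listed gene and no other symbol in the platform's gene table. This gave 33 probe sets for 32 genes, 16 enzymes and 16 other targets, out of 21214 named probe sets. TPI1 has 2 of them. PGAM1, phosphoglycerate mutase, was read on 5 probe sets that also carry the name PGAM4, and the table names no probe set for CA9 or SLC16A3, so these 3 genes are not counted below. The arrays form 4 groups of 2: cells with a conditional EglN2 shRNA at day 2 and at day 0, and cells with the Scr control shRNA at day 2 and at day 0. Both hairpins were delivered by lentivirus. Day 2 cells had 48 h of doxycycline at 1 ug/ml and day 0 cells none, so both lines met the same agent. No group was at day 2 without doxycycline. In the change of a line, doxycycline, expression of the hairpin and time in culture therefore cannot be told apart. The labels do not say whether a line is a clone or a pool, which promoter drives the hairpin, or whether the replicates are separate cultures. The p-values therefore rest on a spread between arrays that could be only technical.

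HIF is a transcription factor made of an oxygen-labile alpha subunit and a stable beta subunit. Prolyl hydroxylases, of which EglN2 is a member, mark the alpha subunit for destruction when oxygen is present, and in hypoxia the factor accumulates and binds short hypoxia response elements whose core is ACGTG or GCGTG. Its targets serve oxygen supply, acid export, mitophagy and the switch of ATP production to glycolysis, the conversion of glucose to pyruvate and lactate in the cytosol. Many glycolytic steps can be run by several isozymes from different genes, and HIF is known to act on only some of them.

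Values are log2 levels per probe set after RMA, which corrects for background, scales the arrays to each other and joins the probes of each set into 1 value. A difference of 1 is a change of 2-fold. Array medians over named probe sets lay between 7.81 and 7.86, and replicates correlated at 0.992 to 0.996. Precision is limited by the number of arrays. Over all named probe sets, the median standard error was 0.12 for a difference between 2 groups, 0.09 for a difference of 4 arrays against 4, and 0.17 for a difference of changes. EGLN2, the target of the hairpin, read 8.26 and 8.29 in the EglN2 shRNA line at day 2, against 8.85 and 9.04 in that line at day 0. The Scr arrays gave 8.81 and 8.90 at day 2, against 8.97 and 9.0 at day 0. The difference between days in the EglN2 shRNA line was -0.67 (SE 0.11) and did not pass the test (limma, adjusted p = 0.134), on a probe set shared with the RAB4B-EGLN2 read-through. All 9 luminal epithelial markers examined had mean levels of 9.76 to 14.10. The summed level of these markers ran from 110.50 to 111.06 in the EglN2 shRNA line at day 2 and from 111.03 to 111.65 over the arrays of the other groups. The summed level of 3 basal or mesenchymal markers ran from 20.32 to 21.32 in the EglN2 shRNA line at day 2 and from 20.65 to 21.39 over the other groups, and that of 5 markers of other cell types from 33.33 to 33.54 and from 33.25 to 34.08. Their part in the results was not tested. In these bulk samples fewer cells that express a gene and less RNA per cell cannot be told apart.

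The sequences before the transcription start show how the response element core lies in these genes. The RefSeq promoter table for GRCh38.p14 held 53 start sites for 28 of the 32 measured genes, several of them with overlapping windows. In the 250 bases before each start, ACGTG was searched on both strands, so a palindromic CACGTG counts as 2 matches, and GCGTG likewise. ACGTG was found in 24 of the 53 windows (45.3%), against 18.5% of all 35116 windows in the table, and GCGTG in 20 (37.7%), against 32.2%. The 36 windows of the enzymes held ACGTG in 38.9% and GCGTG in 27.8%, and the 17 windows of the other targets held each in 58.8%. A gene with several starts counts several times in these shares. Counted by gene, ACGTG was in at least 1 window of 11 of 16 enzymes and 8 of 12 other targets, against 5935 of 27305 genes in the table. By gene the lists differed little for ACGTG, but a gene with more windows has more chances of a match. There were 36 windows for the 16 enzymes, 17 for the 12 other targets and 35116 for the 27305 genes of the table. Neither way of counting allows for this. Windows with 3 or more ACGTG matches made up 11.3% of those of the members and 1.55% of all. Part of the list was chosen as known HIF targets, so these shares are a description with no test. Shown are STC2, the gene whose change passed the test, ALDOC and HK2, the enzymes with the largest positive and negative difference between days over both lines, and the enzymes LDHA and PGK1. The windows lie at chr5:173328415-173328664 (STC2, minus strand), chr17:28576896-28577145 (ALDOC, minus), chr2:74834920-74835169 (HK2, plus, the start with more matches of 2), chr11:18394313-18394562 (LDHA, plus, likewise) and chrX:78103998-78104247 (PGK1, plus). Each reads 5′ to 3′ and ends at the base before the start, with matches to either core, on either strand, in capitals.
STC2: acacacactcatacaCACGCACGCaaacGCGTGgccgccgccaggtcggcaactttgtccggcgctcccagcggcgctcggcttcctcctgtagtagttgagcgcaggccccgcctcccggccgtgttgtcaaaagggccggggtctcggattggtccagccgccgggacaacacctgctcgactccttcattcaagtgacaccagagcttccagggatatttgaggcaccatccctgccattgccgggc
ALDOC: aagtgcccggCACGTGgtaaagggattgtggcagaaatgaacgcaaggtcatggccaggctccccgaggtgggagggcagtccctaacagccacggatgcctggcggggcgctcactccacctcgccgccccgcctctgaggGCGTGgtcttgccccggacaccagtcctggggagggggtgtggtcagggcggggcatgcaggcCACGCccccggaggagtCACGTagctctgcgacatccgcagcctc
HK2: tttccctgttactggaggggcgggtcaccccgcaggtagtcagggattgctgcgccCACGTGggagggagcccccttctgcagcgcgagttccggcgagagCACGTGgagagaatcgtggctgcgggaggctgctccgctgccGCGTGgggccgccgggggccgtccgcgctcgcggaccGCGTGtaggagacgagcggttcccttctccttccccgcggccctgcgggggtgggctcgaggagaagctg
LDHA: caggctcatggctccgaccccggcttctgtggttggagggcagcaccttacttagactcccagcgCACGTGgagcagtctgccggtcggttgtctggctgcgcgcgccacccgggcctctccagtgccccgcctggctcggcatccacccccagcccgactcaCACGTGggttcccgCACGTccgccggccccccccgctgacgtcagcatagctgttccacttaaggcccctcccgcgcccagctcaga
PGK1: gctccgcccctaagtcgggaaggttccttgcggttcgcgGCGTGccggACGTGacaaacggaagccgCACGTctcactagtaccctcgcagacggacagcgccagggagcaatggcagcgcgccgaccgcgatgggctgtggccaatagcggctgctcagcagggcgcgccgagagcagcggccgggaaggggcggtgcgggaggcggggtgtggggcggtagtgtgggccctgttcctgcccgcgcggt
ALDOC holds 3 ACGTG and 2 GCGTG matches, HK2 holds 4 and 2, LDHA 5 and 0, and PGK1 2 and 1. STC2 holds 0 ACGTG and 3 GCGTG matches, all ending 218 to 231 bases before its start. The matches of PGK1 end 179 to 207 bases before its start, and those of ALDOC are spread from 24 to 236 bases. Beside these sequences, the differences between day 2 and day 0 over both lines, given in full below, were 0.60 for STC2, 0.68 for ALDOC, -0.34 for HK2, 0.17 for LDHA and 0.05 for PGK1 on the log2 scale. A match to these letters does not show binding.

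The first comparison asked how the genes differed between day 2 and day 0, over both lines (4 arrays against 4) and in each line. STC2, which encodes the secreted glycoprotein stanniocalcin 2, rose at day 2 by 0.60 on the log2 scale (SE 0.09), or 1.52-fold, and was the only member to pass the test over both lines (limma, adjusted p = 0.0392). Over all named probe sets 0.141% passed, 0.118% as higher at day 2. At an unadjusted p under 0.05, 13 of the 33 member probe sets differed over both lines, 10 higher (6.47% of all named probe sets) and 3 lower at day 2 (4.27% of all). That is a share of 39.4%, where 10.7% of all named probe sets reached such a p. In the EglN2 shRNA line alone 0 members passed (0.00943% of all probe sets did) and 9 had an unadjusted p under 0.05, 7 higher (2.73% of all) and 2 lower (3.04% of all), together 27.3% against 5.77% of all. In the Scr line alone 0 passed (0% of all) and 7 had such a p, 6 higher (7.49% of all) and 1 lower (5.36% of all), together 21.2% against 12.9% of all. These counts describe a list chosen with earlier results of the same arrays known.

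**Figure D1:**
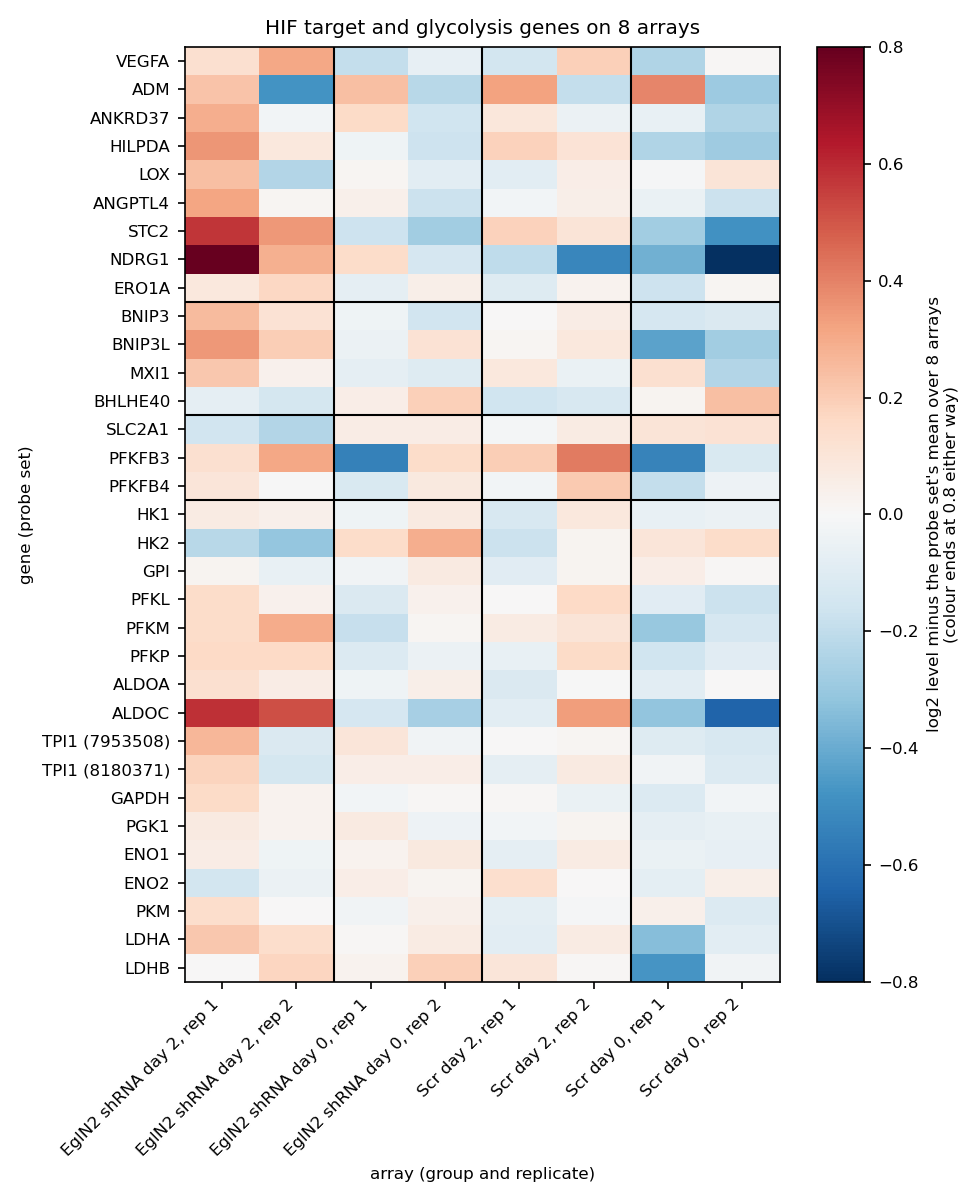
Level of each member probe set on each of the 8 arrays, as the log2 level minus the probe set's mean over all arrays (colour), with genes in rows by role (HIF targets outside metabolism, mitophagy and transcription, transport and PFKFB enzymes, glycolytic enzymes) and arrays in columns by group. STC2 and ALDOC are above their means on both day 2 arrays of the EglN2 shRNA line and below on all 4 day 0 arrays, HK2 runs the other way in that line, and most enzymes stay pale.

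Among the secreted and other HIF targets outside metabolism, STC2 read 11.28 and 11.05 in the EglN2 shRNA line at day 2, against 10.54 and 10.43 at day 0. On the Scr arrays STC2 stood at 10.89 and 10.81 at day 2, against 10.43 and 10.22 at day 0. All 4 day 2 arrays lie above all 4 day 0 arrays, which held for 2.98% of all named probe sets in this direction. The difference was 0.68 (SE 0.12) in the EglN2 shRNA line and 0.52 (SE 0.12) in the Scr line, with adjusted p of 0.181 and 0.234 (limma). The call over both lines rests on the full set of arrays: without any single array the adjusted p lay between 0.064 and 0.229, with a difference of 0.55 to 0.66, and with all probe sets of the table in the fit it was 0.239.

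HILPDA, which encodes a small protein of the lipid droplet surface, read 10.77 and 10.50 in the EglN2 shRNA line at day 2, against 10.38 and 10.25 at day 0. On the Scr arrays HILPDA stood at 10.60 and 10.53 at day 2, against 10.18 and 10.13 at day 0. Here too every day 2 array is above every day 0 array, and the difference over both lines was 0.36 (SE 0.08, confidence interval 0.18 to 0.55, adjusted p = 0.173). VEGFA, the main angiogenic growth factor, read 8.33 and 8.51 in the EglN2 shRNA line at day 2, against 8.01 and 8.13 at day 0, and the Scr groups overlapped, at 8.05 and 8.39 against 7.96 and 8.21. Its difference was 0.35 (SE 0.14, adjusted p = 0.819) in the EglN2 shRNA line, 0.13 (SE 0.14, adjusted p = 0.691) in the Scr line and 0.24 (SE 0.10, adjusted p = 0.441) over both.

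NDRG1, a stress-responsive gene of iron and lipid handling that hypoxia induces, read 10.14 and 8.66 in the EglN2 shRNA line at day 2, against 8.52 and 8.24 at day 0. On the Scr arrays NDRG1 stood at 8.17 and 7.85 at day 2, against 7.99 and 7.42 at day 0. The first day 2 array of the EglN2 shRNA line stands 1.48 above its replicate, so the mean there is 9.40 ± 1.05 (SD, n = 2). The difference in that line was 1.02 (SE 0.39, adjusted p = 0.768), and 0.28 without that array. Over both lines it was 0.66 (SE 0.27, adjusted p = 0.44), and 0.29 without it.

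ADM, which encodes the vasodilator peptide adrenomedullin, followed the replicate number and not the day. It read 9.50, 9.51, 9.59 and 9.66 on the replicate 1 arrays of EglN2 shRNA day 2, EglN2 shRNA day 0, Scr day 2 and Scr day 0, and 8.79, 9.05, 9.08 and 8.98 on the replicate 2 arrays in the same order. Its difference between days over both lines was -0.06 with an interval of -0.52 to 0.40. The sign of replicate 1 minus replicate 2 was the same in all 4 groups for 10 of the 33 member probe sets (30.3%), against 20.2% of all named probe sets. ANKRD37, an ankyrin repeat gene, the lipase inhibitor ANGPTL4, the oxidase of disulfide formation ERO1A and the collagen cross-linking enzyme LOX had differences of 0.16, 0.18, 0.09 and -0.01 over both lines, each with an unadjusted p above 0.05. LOX read only 6.04 to 6.52 over the arrays, below every array median (7.81 to 7.86).

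**Figure D2:**
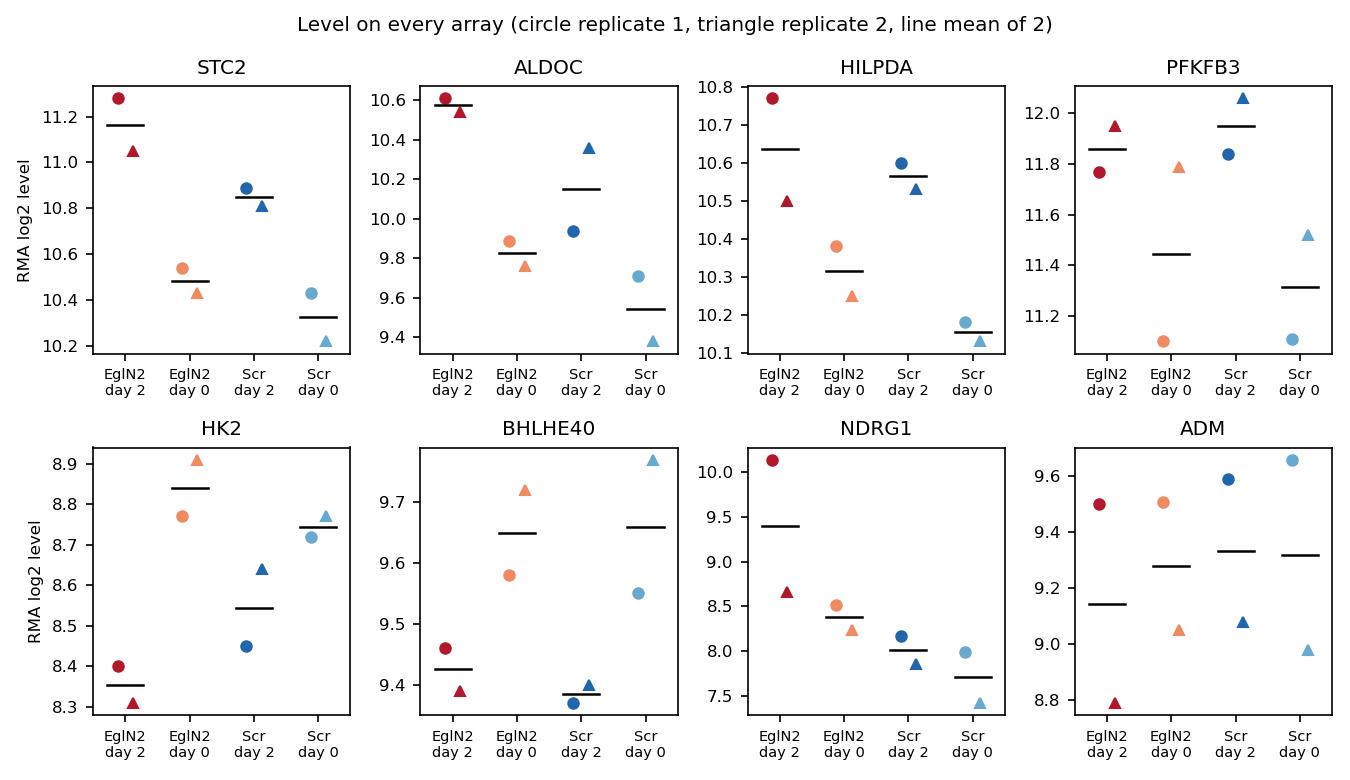
RMA log2 level of 8 members on every array, with circles for replicate 1, triangles for replicate 2 and a line at the mean of each group of 2; each panel has its own axis, which does not start at 0. In STC2, ALDOC and HILPDA all day 2 arrays lie above all day 0 arrays, in HK2 and BHLHE40 they lie below, in NDRG1 an array of the EglN2 shRNA line at day 2 reads 10.14, and ADM separates by replicate.

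BNIP3 and BNIP3L encode receptors that deliver mitochondria to autophagy. BNIP3 read 10.09 and 9.95 in the EglN2 shRNA line at day 2, against 9.80 and 9.68 at day 0, and 9.84 and 9.89 in the Scr line at day 2, against 9.70 and 9.72 at day 0. BNIP3L read 10.08 and 9.93 in the EglN2 shRNA line at day 2, against 9.69 and 9.85 at day 0, and 9.75 and 9.82 in the Scr line at day 2, against 9.31 and 9.46 at day 0. Each is higher at day 2 within each line without overlap, which is common with 2 arrays against 2 (15.2% of all named probe sets in the EglN2 shRNA line and 23% in the Scr line), and for BNIP3 all 4 day 2 arrays are above all day 0 arrays. Over both lines the differences were 0.22 (SE 0.07, adjusted p = 0.361) for BNIP3 and 0.32 (SE 0.08, adjusted p = 0.215) for BNIP3L. BHLHE40, a transcriptional repressor that hypoxia usually induces, differed the other way. BHLHE40 read 9.46 and 9.39 in the EglN2 shRNA line at day 2, against 9.58 and 9.72 at day 0, and 9.37 and 9.40 in the Scr line at day 2, against 9.55 and 9.77 at day 0. Its difference over both lines was -0.25 (SE 0.08, interval -0.43 to -0.07, adjusted p = 0.33), with no overlap between days. MXI1, an antagonist of MYC, had a difference of 0.14 (SE 0.10).

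Of the genes that feed and steer glycolysis, SLC2A1 encodes the glucose transporter GLUT1. It read 9.19 and 9.11 in the EglN2 shRNA line at day 2, against 9.40 and 9.40 at day 0, and 9.33 and 9.41 in the Scr line at day 2, against 9.45 and 9.46 at day 0. In both lines the day 2 arrays lie below the day 0 arrays, as for 15.5% of all named probe sets in the EglN2 shRNA line and 24.8% in the Scr line, with differences of -0.25 (SE 0.10, adjusted p = 0.775) in the EglN2 shRNA line and -0.08 (SE 0.10, adjusted p = 0.714) in the Scr line. Over both lines SLC2A1 had -0.17 (SE 0.07, adjusted p = 0.44), with an unadjusted p under 0.05. PFKFB3 makes fructose 2,6-bisphosphate, the activator of phosphofructokinase. It read 11.77 and 11.95 in the EglN2 shRNA line at day 2, against 11.10 and 11.79 at day 0, and 11.84 and 12.06 in the Scr line at day 2, against 11.11 and 11.52 at day 0. Replicate 1 was below replicate 2 in every group, by up to 0.69. The difference over both lines was 0.53 (SE 0.15, adjusted p = 0.28, interval 0.18 to 0.87), and 0.35 without the first day 0 array of the EglN2 shRNA line. This fit leaves the shift between replicates in the error. With replicate number added as a block PFKFB3 passed the test over both lines, but the labels do not say what that number marks. PFKFB4, a related enzyme, had 0.14 (SE 0.09) over both lines in the fit used.

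Along the glycolytic pathway, ALDOC, PFKM and PFKP (higher at day 2) and HK2 (lower) had an unadjusted p under 0.05 over both lines, and the other 12 enzymes did not. At the hexokinase step, which traps glucose in the cell, HK2 read 8.40 and 8.31 in the EglN2 shRNA line at day 2, against 8.77 and 8.91 at day 0. In the Scr line HK2 read 8.45 and 8.64 at day 2, against 8.72 and 8.77 at day 0. All day 2 arrays lie below all day 0 arrays, as for 2.11% of named probe sets, and the difference was -0.48 (SE 0.11, adjusted p = 0.345) in the EglN2 shRNA line, -0.20 (SE 0.11, adjusted p = 0.462) in the Scr line and -0.34 (SE 0.08, adjusted p = 0.173) over both. HK1, the other hexokinase among the members, had 0.03 over both lines, with an interval of -0.14 to 0.21. GPI, which converts glucose 6-phosphate to fructose 6-phosphate, had -0.05 (interval -0.22 to 0.11).

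The phosphofructokinase subunits carry out the committed step of the pathway. PFKM read 10.65 and 10.80 in the EglN2 shRNA line at day 2, against 10.32 and 10.52 at day 0, and 10.57 and 10.61 in the Scr line at day 2, against 10.20 and 10.37 at day 0. The days do not overlap, and the difference was 0.30 (SE 0.08, adjusted p = 0.257) over both lines. PFKP read 10.42 and 10.42 in the EglN2 shRNA line at day 2, against 10.15 and 10.21 at day 0, and 10.20 and 10.41 in the Scr line at day 2, against 10.10 and 10.17 at day 0. It is higher at day 2 within each line without overlap, as common as stated for BNIP3. Over both lines PFKP had 0.20 (SE 0.08, adjusted p = 0.399) and PFKL 0.17 (SE 0.08, adjusted p = 0.475), so all 3 subunit genes read higher at day 2 without a call.

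Aldolase, which splits fructose 1,6-bisphosphate, had isozymes with unlike values. ALDOC read 10.61 and 10.54 in the EglN2 shRNA line at day 2, against 9.89 and 9.76 at day 0, and 9.94 and 10.36 in the Scr line at day 2, against 9.71 and 9.38 at day 0. All day 2 arrays are above all day 0 arrays. The difference was 0.75 (SE 0.16, adjusted p = 0.279) in the EglN2 shRNA line, 0.60 (SE 0.16, adjusted p = 0.26) in the Scr line and 0.68 (SE 0.11), or 1.60-fold, over both lines, just short of the threshold (adjusted p = 0.0663). With a prior variance that follows intensity it passed (adjusted p = 0.0306), and it also passed with replicate number added as a block. The Scr value was 0.39 without the second day 2 array of that line. ALDOA had 0.03 over both lines (interval -0.13 to 0.20), and the difference between the isozymes was not tested.

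The enzymes of the lower pathway, which make ATP and pyruvate, had differences near 0 between days. GAPDH read 13.98 and 13.86 in the EglN2 shRNA line at day 2, against 13.81 and 13.84 at day 0, and 13.84 and 13.78 in the Scr line at day 2, against 13.72 and 13.81 at day 0. PGK1, phosphoglycerate kinase, read 12.52 and 12.48 in the EglN2 shRNA line at day 2, against 12.52 and 12.41 at day 0, and 12.43 and 12.47 in the Scr line at day 2, against 12.38 and 12.39 at day 0. Over both lines the differences and intervals were 0.07 (-0.09 to 0.23) for GAPDH and 0.05 (-0.11 to 0.21) for PGK1. ENO1 and PKM, enolase and pyruvate kinase, had 0.01 (-0.16 to 0.17) and 0.03 (-0.14 to 0.20), and ENO2, the neuronal enolase, had -0.03 (-0.19 to 0.14). ENO2 read only 6.70 to 6.98 over the arrays, below every array median (7.81 to 7.86), and whether it stands above background was not analysed. The 2 probe sets of triose phosphate isomerase, TPI1, gave 0.08 and 0.02. The 5 probe sets shared by PGAM1 and PGAM4 gave 0.01 to 0.03. Several of these enzymes have processed pseudogenes, and hybridisation of such copies cannot be separated here.

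Lactate dehydrogenase interconverts pyruvate and lactate. LDHA read 12.95 and 12.87 in the EglN2 shRNA line at day 2, against 12.74 and 12.80 at day 0, and 12.65 and 12.80 in the Scr line at day 2, against 12.39 and 12.65 at day 0. LDHB read 10.21 and 10.38 in the EglN2 shRNA line at day 2, against 10.24 and 10.40 at day 0, and 10.31 and 10.22 in the Scr line at day 2, against 9.74 and 10.18 at day 0. The first Scr day 0 array is the lowest for both genes. The difference over both lines was 0.17 for LDHA (SE 0.08, adjusted p = 0.504) and 0.14 for LDHB (SE 0.11, adjusted p = 0.676).

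**Figure D3:**
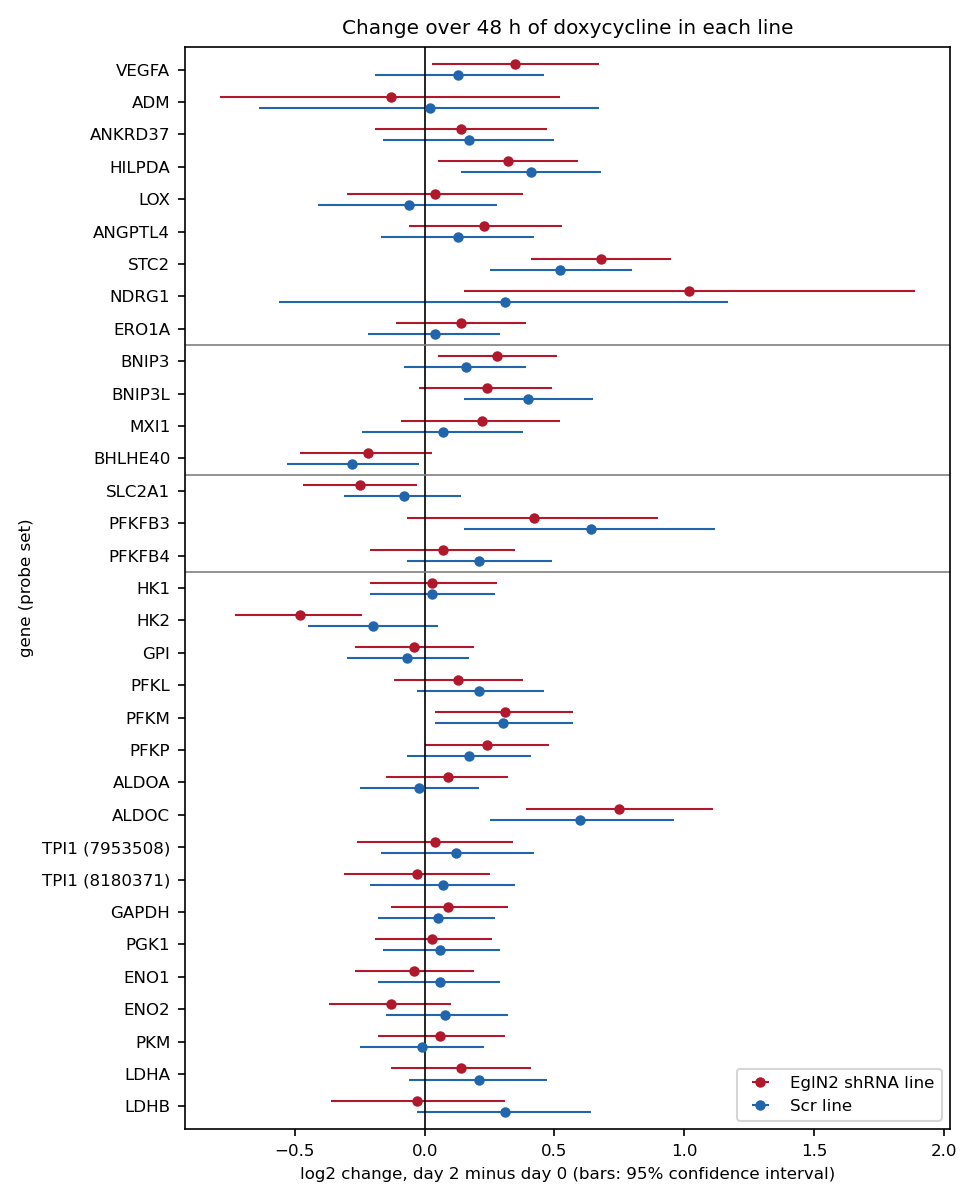
Log2 change from day 0 to day 2 of each member probe set in the EglN2 shRNA line (red, upper) and the Scr line (blue, lower), with 95% confidence intervals that are not adjusted for the number of genes. STC2, HILPDA, PFKM and ALDOC have intervals above 0 in both lines, HK2 and SLC2A1 have intervals below 0 in the EglN2 shRNA line, and most enzymes have both intervals across 0.

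Set beside each other, the 16 enzymes had a smaller median difference between days than the 16 other HIF targets. Over both lines the median difference was 0.04 for the enzymes and 0.17 for the other targets, against -0.01 for all named probe sets, and the median size without sign was 0.06, 0.20 and 0.08 in the same order. An unadjusted p under 0.05 was reached by 4 of 16 enzymes (3 higher, 1 lower) and by 9 of 16 other targets (7 higher, 2 lower), which is 25% and 56.2%, against 10.9% of all single genes. In the EglN2 shRNA line the medians were 0.05 for enzymes and 0.23 for other targets, and in the Scr line 0.07 and 0.15. The lists also differ in level, with means over all arrays up to 13.85 (ENO1) among enzymes and 11.64 (PFKFB3) among other targets. The SD within groups reached 0.20 (ALDOC) among enzymes and 0.58 (NDRG1) among other targets. The part of level and spread in these medians was not tested. No test was made between the lists, and the medians move with single arrays. Over both lines they ran from 0.02 to 0.08 for enzymes and from 0.11 to 0.22 for other targets when each array was left out. Without the first day 2 array of the EglN2 shRNA line its medians were 0.03 and 0.14, and without the second 0.13 and 0.30. Without the first Scr day 2 array the enzyme median of that line was 0.13, and without the second Scr day 0 array the median of the other targets was 0.10.

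The lines shared the direction of many of these differences, and their changes have no array in common. Of the 32 genes 24 had the same sign in both lines (75%), 20 positive and 4 negative, against 51.7% of 18417 single genes. Among the other HIF targets it was 14 of 16 and among the enzymes 10 of 16. Across the 32 genes the changes in the EglN2 shRNA line and in the Scr line correlated at a Pearson r of 0.76 (Spearman rho 0.77), against 0.14 (rho 0.08) across all single genes. Genes are not independent replicates, and within a line they share the same 4 arrays, so no p is given. The list was also chosen with earlier results of these same arrays known. Its agreement beside that of all single genes is therefore a description and no support for a shared response.

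**Figure D4:**
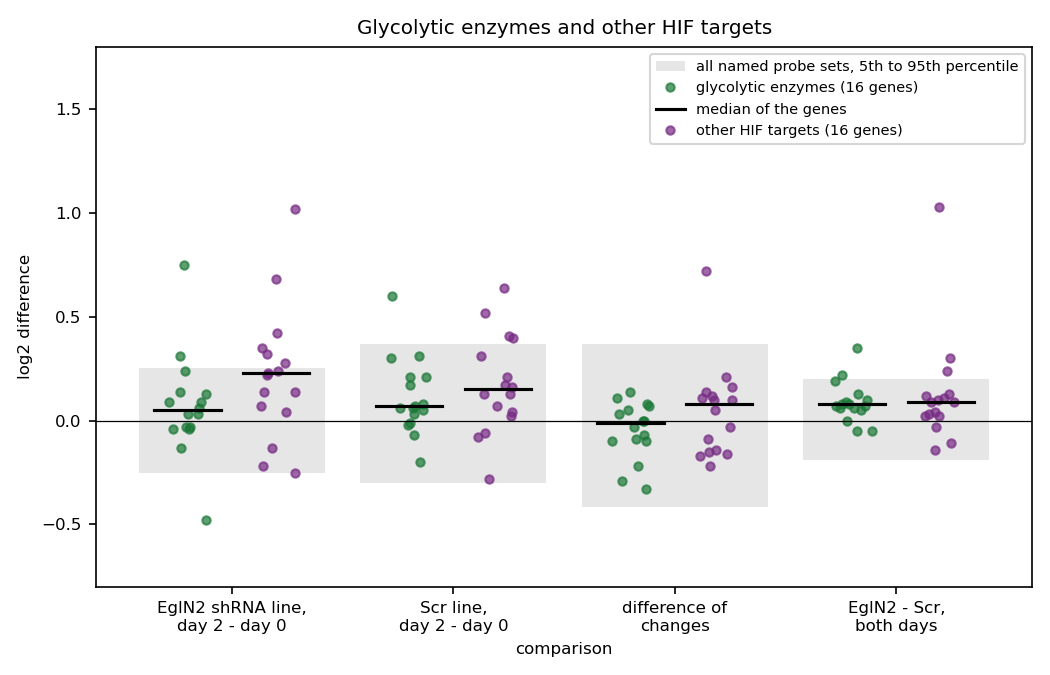
Log2 difference of each gene in 4 comparisons, for the 16 glycolytic enzymes (green, left) and the 16 other HIF targets (purple, right), with black lines at the medians and grey bands for the 5th to 95th percentile of all named probe sets. The other targets sit higher than the enzymes in the change of the EglN2 shRNA line (medians 0.23 and 0.05). They also do so in the change of the Scr line (0.15 and 0.07). In the difference of changes the medians are 0.08 and -0.01. The median of the other targets there becomes -0.09 without the first day 2 array of the EglN2 shRNA line.

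The second comparison asked whether the change between day 2 and day 0 in the EglN2 shRNA line differed from that in the Scr line. In the difference of changes 0 of 33 member probe sets passed (limma, smallest adjusted p = 0.709; 0% of all probe sets passed), and 0 had an unadjusted p under 0.05, where 7.12% of all did. The median was -0.01 for the enzymes and 0.08 for the other targets, and the second became -0.09 without the first day 2 array of the EglN2 shRNA line. For STC2 the difference of changes was 0.16 with an interval of -0.23 to 0.54, for ALDOC 0.14 (-0.36 to 0.65), for VEGFA 0.21 (-0.24 to 0.67) and for PGK1 -0.03 (-0.34 to 0.28). The members farthest from 0 were NDRG1 at 0.72 (-0.52 to 1.95) and LDHB at -0.33 (-0.80 to 0.14). HK2 had -0.29 (-0.64 to 0.07). For HK2, SLC2A1 and ENO2, 3 of the 33, all 4 possible changes of the EglN2 shRNA line lay below all 4 of the Scr line, as for 10.4% of all named probe sets. These intervals leave room for differences of changes in either direction, so they do not show that the lines responded alike.

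The third comparison set the lines against each other at each day and over both days. At day 2, 0 members passed (0.0754% of all probe sets did) and 3 of 33 had an unadjusted p under 0.05 (9.09%, against 5.19% of all). These were NDRG1 at 1.39 (SE 0.39, adjusted p = 0.51), ALDOC at 0.42 (SE 0.16, adjusted p = 0.824) and STC2 at 0.32 (SE 0.12, adjusted p = 0.861), all higher in the EglN2 shRNA line (2.49% of all were). Each moved with single arrays. NDRG1 was 0.65 without the first day 2 array of the EglN2 shRNA line and 2.13 without the second. Either fit leaves 1 array in that group, so the gap between these replicates no longer enters the spread, and no p is given. ALDOC was 0.21 without the first Scr day 2 array and 0.63 without the second, and STC2 was 0.20 without the first day 2 array of the EglN2 shRNA line. At day 0, before doxycycline, 0 passed (0% of all) and 2 had such a p (6.06%, against 10.4% of all and 5.16% in this direction): BNIP3L at 0.38 (SE 0.11, adjusted p = 0.455) and LDHB at 0.36 (SE 0.15, adjusted p = 0.464). The LDHB value was 0.14 without the first Scr day 0 array and 0.58 without the second.

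Over both days 0 members passed (0.033% of all did) and 5 of 33 had an unadjusted p under 0.05, all higher in the EglN2 shRNA line (15.2%, against 8.07% of all and 4.5% in this direction). NDRG1, whose values are given above, had all 4 arrays of the EglN2 shRNA line above all 4 Scr arrays (2.04% of all named probe sets did), and its difference of 1.03 (SE 0.27, adjusted p = 0.404) ranked 1 of the 21214 named probe sets by size on the positive side. At day 0 it was already 0.68 (SE 0.39). Without the first day 2 array of the EglN2 shRNA line the difference over both days was 0.66, and without the second it was 1.40. As at day 2, either fit leaves 1 array in that group, so no p is given. The others were ALDOC at 0.35 (SE 0.11, adjusted p = 0.539), BNIP3L at 0.30 (SE 0.08, adjusted p = 0.404), STC2 at 0.24 (SE 0.09, adjusted p = 0.585) and LDHA at 0.22 (SE 0.08, adjusted p = 0.607). Enzymes and other targets had similar medians here, 0.08 and 0.09, against 0 for all named probe sets.

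Further genes of the pathway were examined as a list of 25 HIF subunits, hydroxylases and targets outside the members, of which 23 were measured. Over both lines 0 passed between day 2 and day 0, and 6 had an unadjusted p under 0.05, all higher at day 2. They were the collagen prolyl hydroxylases P4HA2 at 0.47 (SE 0.07, adjusted p = 0.0556) and P4HA1 at 0.48 (SE 0.11, adjusted p = 0.148), the pyruvate dehydrogenase kinase PDK1 at 0.59 (SE 0.10, adjusted p = 0.0769), the mTORC1 inhibitor DDIT4 at 0.38 (SE 0.08, adjusted p = 0.116), the histone demethylase KDM3A at 0.26 (SE 0.08) and VHL, the substrate receptor for hydroxylated HIF, at 0.25 (SE 0.07). That is 26.1% of the list, against 10.9% of all 18417 single genes. The hydroxylases EGLN1 and EGLN3 had 0.07 (SE 0.08) and -0.08 (SE 0.10). HIF1A, which encodes an alpha subunit, had unlike values in the lines, -0.14 (SE 0.13, adjusted p = 0.973) in the EglN2 shRNA line and 0.36 (SE 0.13, adjusted p = 0.33) in the Scr line. Its difference of changes was -0.50 (SE 0.18, adjusted p = 0.676), the only one of the 23 with an unadjusted p under 0.05 (4.35%, against 7.23% of all single genes), and it passed no test. Between the lines 0 genes of the list passed. An unadjusted p under 0.05 was reached by 2 at day 2 (8.7%, against 5.38% of all single genes), among them HIF1A at -0.37 (SE 0.13, adjusted p = 0.767), by 7 at day 0 (30.4%, against 10.8%) and by 5 over both days (21.7%, against 8.36%). In a list of 28 other genes of sugar uptake and glycolysis, 23 measured, 0 passed and 3 had an unadjusted p under 0.05 (13%, near the 10.9% of all single genes): the kinases PDK4 at 0.33 (SE 0.08, adjusted p = 0.173) and PDK3 at 0.30 (SE 0.10, adjusted p = 0.375), and the gluconeogenic enzyme FBP1 at -0.30 (SE 0.13, adjusted p = 0.465). The medians of the lists were 0.11 and 0.01.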

How the data were processed

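Total RNA of 8 samples was measured on Affymetrix arrays. The authors deposited log2 values, 1 for each probe set and array. The submitters' processing notes name RMA and Affymetrix Expression Console, with no version in the sources used here. The values were used with no further scaling. Of 33297 probe sets the platform's gene table gives 19460 a single gene, 1754 more than 1 and 12083 no gene. RefSeq gene IDs (GRCh38.p14) brought 19429 of the single names up to date. Groups and replicate numbers come from the sample titles.

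A mean for each of the 4 groups was estimated from the 8 arrays together by limma 3.58.1 under R 4.3.3 (lmFit, eBayes; 4 residual and 5.53 prior degrees of freedom), and 7 comparisons were drawn from the fit. Tests are two-sided, with Benjamini-Hochberg adjustment over the 21214 named probe sets and a threshold of 0.05. All adjusted p and SE are limma's, and intervals are 95%. Where a gene is counted, its probe set with the highest mean is used. Members and lists were chosen with earlier results of these data known. Values of every array are given for members with an unadjusted p under 0.05 in a comparison and for VEGFA, LDHA, PGK1 and GAPDH (the rule's other gene, CA9, has no named probe set). ADM and the selection of the promoters shown were chosen after their values were seen. The fit was tested on simulated data. Alternatives were a replicate block, all probe sets, no dim probe sets, arrays centred on their medians, a prior following intensity, only the arrays compared, 1 probe set a gene, and leaving out each array. Promoter sequences are RefSeq's.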

Additional observations from a re-analysis of the deposited data

How the results depend on the processing

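The number of members called between day 2 and day 0 over both lines, 1 in the fit used, was 3 with a replicate block (STC2, ALDOC and PFKFB3), 2 with a prior variance following intensity (STC2 and ALDOC) and 0 with all probe sets of the table. Without any single array it was 0 in all 8 cases. Between the lines at day 2, and over both days, the count of 0 changed through NDRG1 without the second day 2 array of the EglN2 shRNA line. That fit leaves 1 array in the group, so the gap between its NDRG1 replicates no longer enters the spread, and no call is read from it. The other 4 comparisons had 0 members called under every alternative run.

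For the change in the EglN2 shRNA line, leaving out single arrays gave medians of 0.03 to 0.13 for enzymes and 0.14 to 0.30 for other targets. For the Scr line they were 0.06 to 0.13 and 0.10 to 0.22, for the difference of changes -0.08 to 0.03 and -0.09 to 0.13, and for other targets between the lines at day 2 they were 0.01 to 0.20. Of 264 values of the counts and medians under alternatives, 242 kept their call or moved by less than the replicate spread. Many of the medians could not move. Leaving out an array that a comparison does not use, a replicate block, or a fit of only the arrays compared keeps the differences as they were. The tally is therefore no measure of stability. All 39 member differences with an unadjusted p under 0.05 kept their sign, and of the 185 with a larger p, 80 turned sign under at least 1 alternative. The 39 were picked by their p on these same arrays, so a kept sign was likely beforehand and is no evidence of stability.

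The replicate numbers are not stated to mark a shared culture or day. Differences between replicates correlated at 0.10 to 0.27 between groups over 21214 probe sets, and the block moved the count of calls as given. With 2 arrays a group and no scanner files, signal over background was not analysed here, and a small true change of an enzyme could be missed.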
